A study of Mus musculus with 4 samples.

Results

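Of 42977 rat genes in the deposited count table, 39 had 20 counts or more in both exosome libraries of 1 group and 0 counts in both libraries of the other group. The genes were chosen by these counts alone. Of the 39, 30 were read in the libraries called MSC-Exo and at 0 in those called MSCATV-Exo, and 9 were read in MSCATV-Exo and at 0 in MSC-Exo. The series holds 4 libraries of RNA from exosomes, the small vesicles that cells release, collected from the medium of cultured bone marrow mesenchymal stem cells (MSCs). MSC-Exo (2 libraries) came from cells given DMSO, the solvent, and MSCATV-Exo (2 libraries) from cells given 1 µmol/L atorvastatin (ATV), a statin that blocks cholesterol synthesis. All cells came from male SD rats aged 6 to 8 weeks and were used at passages 3 to 4. The samples are registered as mouse, whereas the cell source, the rn6 build and the gene identifiers are of rat. Pretreatment is given as 24 h in the sample characteristics and as 48 h in the treatment protocol. Whether both libraries of a group stem from different rats or culture dishes is not given in the labels, so each SE and p-value below measures only the spread between these libraries, which may be technical. In RNA of exosomes, fewer cells of a type, fewer vesicles and less RNA per cell or vesicle cannot be told apart.

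The 39 genes fell into 4 deposited gene types, of which 17 were pseudogenes, 13 long non-coding RNA genes, 7 protein-coding genes and 2 V segments. A processed pseudogene arises when the mRNA of a gene is copied back into DNA and inserted elsewhere, so it has no introns and its sequence stays close to that of its parent gene. Ribosomal protein genes and other strongly transcribed genes have many such copies. Long non-coding RNAs are transcripts without a known protein product. Many are transcribed at low levels and were annotated by prediction alone. Olfactory receptors are odorant receptors of sensory neurons in the nose and form the largest gene family of rodents. V segments are the germline pieces from which B and T cells assemble immunoglobulin and T-cell receptor genes. Exosome RNA is known to hold fragments of messenger, ribosomal and non-coding RNA of the releasing cell.

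The 39 genes were 0.0907% of the table, with 0.0698% read in MSC-Exo only and 0.0209% in MSCATV-Exo only. The rule fixed these counts, so no test was made of them and nothing is read from them about atorvastatin. The 4 libraries can also be divided in 2 ways that each put 1 library of either group on each side. Pairing libraries with the same replicate number gave 44 genes at the same limits, 18 of them read in MSC-Exo-1 and MSCATV-Exo-1 and 26 read in MSC-Exo-2 and MSCATV-Exo-2. Pairing libraries with different numbers gave 24 genes, 17 read in MSC-Exo-1 and MSCATV-Exo-2 and 7 read in MSC-Exo-2 and MSCATV-Exo-1. The number for the labelled groups thus lay between those of the 2 crossed divisions. Among the 6 pairs of libraries, the MSC-Exo pair had the most genes to itself, and only the pair of MSC-Exo-2 and MSCATV-Exo-1 had fewer than the MSCATV-Exo pair.

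The order of the 3 divisions depended on the lower limit of counts. With a limit of 10 counts the labelled groups gave 209 genes and the crossed divisions 202 and 170. With a limit of 15 the numbers were 90, 83 and 54. At 25 counts they were 20 for the labelled groups, 27 for the same replicate numbers and 11 for different numbers. At 30 counts they were 13, 13 and 6, at 40 counts 2, 4 and 1, and at 50 counts all 3 divisions were at 0. The labelled division held the most genes at 10 and 15 counts and tied at 30, and the division by same replicate numbers held the most at 20, 25 and 40.

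**Figure D1:**
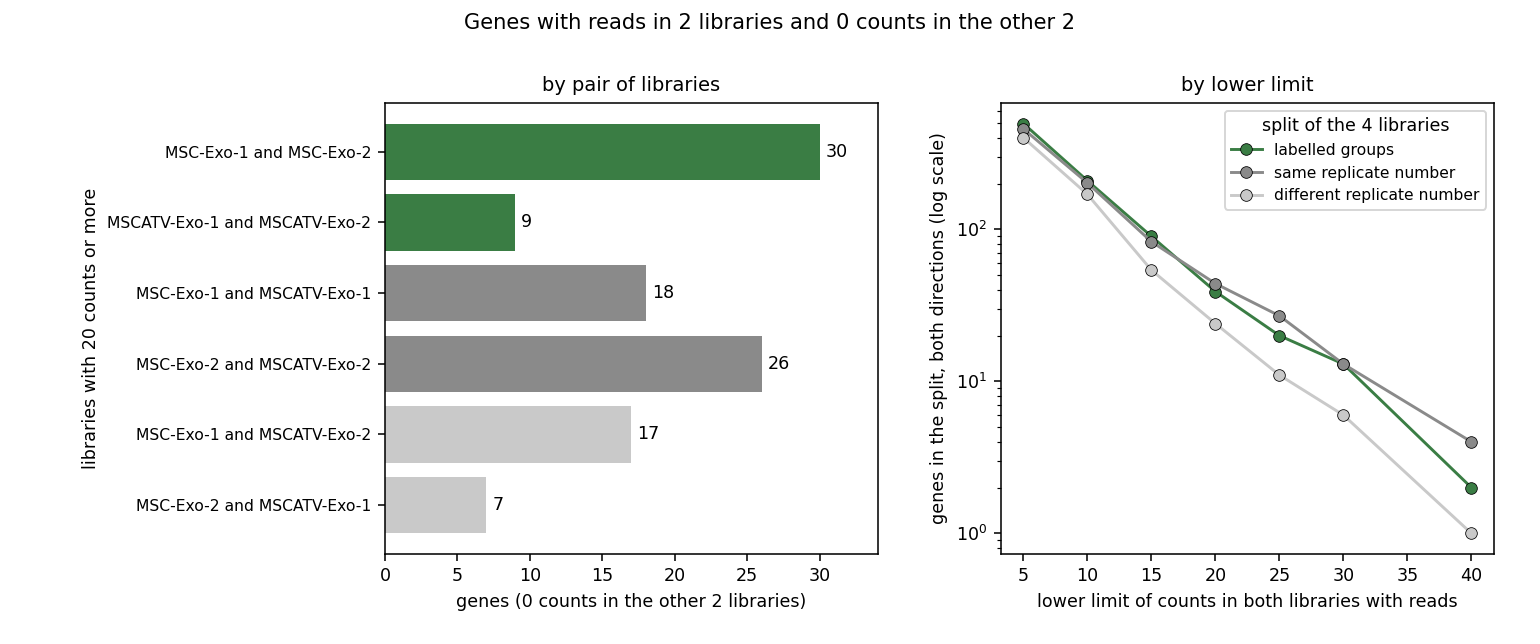
Left, number of genes (horizontal axis) with 20 counts or more in the named pair of libraries (vertical axis) and 0 counts in the other 2. Right, number of genes in each of the 3 divisions of the 4 libraries (vertical axis, log scale) against the lower limit of counts (horizontal axis). The MSC-Exo pair had 30 genes and the MSCATV-Exo pair 9, against 7 to 26 for the 4 crossed pairs, and the 3 lines fall together as the limit rises.

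A count of 0 beside 20 or more was also common between libraries of the same group. MSC-Exo-1 was at 0 for 387 of the 26616 genes with 20 counts or more in MSC-Exo-2 (1.45%), and the reverse held for 299 genes (1.11%). MSCATV-Exo-1 was at 0 for 916 of the 26763 genes with 20 counts or more in MSCATV-Exo-2 (3.42%), and the reverse held for 545 (2.1%). The libraries differed in how many genes they missed. MSCATV-Exo-1 had the largest total but the lowest TMM factor for scaling the totals (0.923, against 1.01 to 1.04 in the others). It was at 0 for 8164 genes, against 5659 to 6807 in the other 3 libraries. It alone was at 0, with 20 counts or more in the other 3, for 173 genes, against 32 to 77 genes for each of the other libraries. Both MSCATV-Exo libraries were at 0 for 4709 genes and both MSC-Exo libraries for 3928, including 2990 genes at 0 in all 4. The part of these differences in the excess of genes read in MSC-Exo only was not tested. With MSCATV-Exo-1 left out, the rule gave 161 genes read in MSC-Exo only and 66 read in MSCATV-Exo only. With MSCATV-Exo-2 left out it gave 350 and 78, with MSC-Exo-1 left out 118 and 75, and with MSC-Exo-2 left out 161 and 144.

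**Figure D2:**
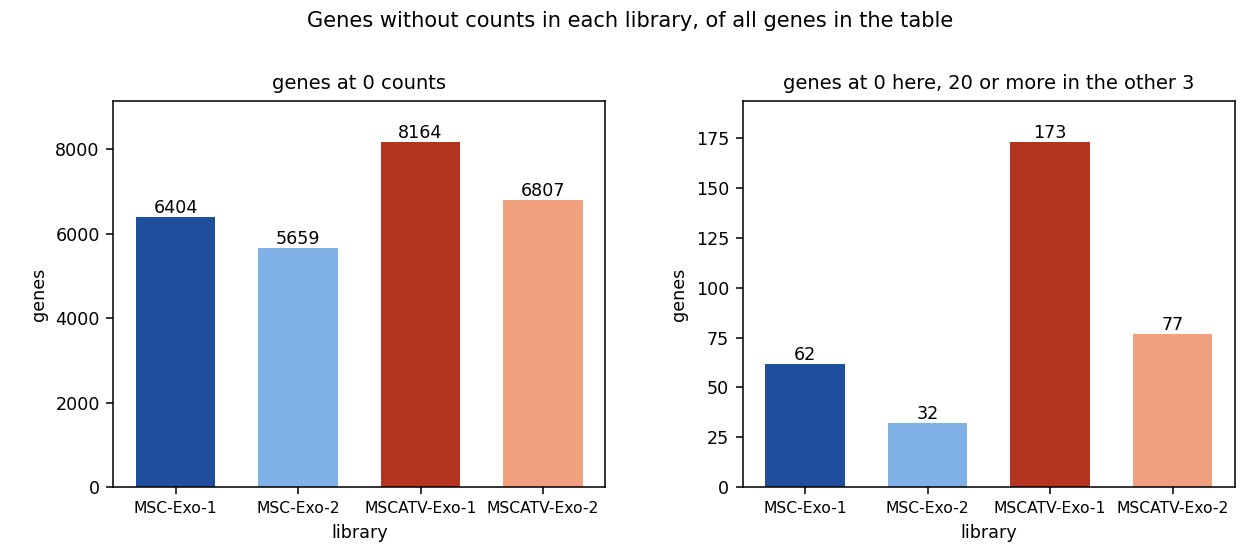
Number of genes (vertical axes) at 0 counts in each library (left) and at 0 in that library with 20 counts or more in the other 3 (right). MSCATV-Exo-1 is the highest in both panels, with 8164 and 173 genes.

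The library totals were 5350295 and 5355098 counts in MSC-Exo-1 and MSC-Exo-2, and 5947020 and 5598378 in MSCATV-Exo-1 and MSCATV-Exo-2. At these depths a gene at 0 could still stand at up to 3 counts, that is 0.504 to 0.561 CPM (counts scaled to a common library total). This limit covers counting error only, because the reads carry no molecular identifiers and may repeat the same molecule. The lower count of a gene in its group with reads was 20 to 43 (median 25), and the higher count was 21 to 94 (median 40). Of the 39 genes, 21 had a lower count of 20 to 25, close to the limit, and 13 had 30 or more in both libraries. The 2 counts of a gene differed by a factor of 1 to 2.61 (median 1.5), and by 2-fold or more for 8 genes. Against 3 counts over the group at 0, the genes stood at least 13.6-fold to at least 43.2-fold higher in the group with reads (median of the bounds 22.4). These folds come from the contrast by which the genes were chosen. They allow for counting error in the group at 0 only, and not for spread between libraries. Together the 30 genes held 984 and 1029 counts of MSC-Exo-1 and MSC-Exo-2, or 0.0184% and 0.0192% of the library. The 9 genes held 330 and 322 counts of MSCATV-Exo-1 and MSCATV-Exo-2, or 0.00555% and 0.00575%. The 68 genes of the crossed divisions had lower counts of 20 to 48 (median 25), and 19 of them had 30 or more in both libraries with reads.

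**Figure D3:**
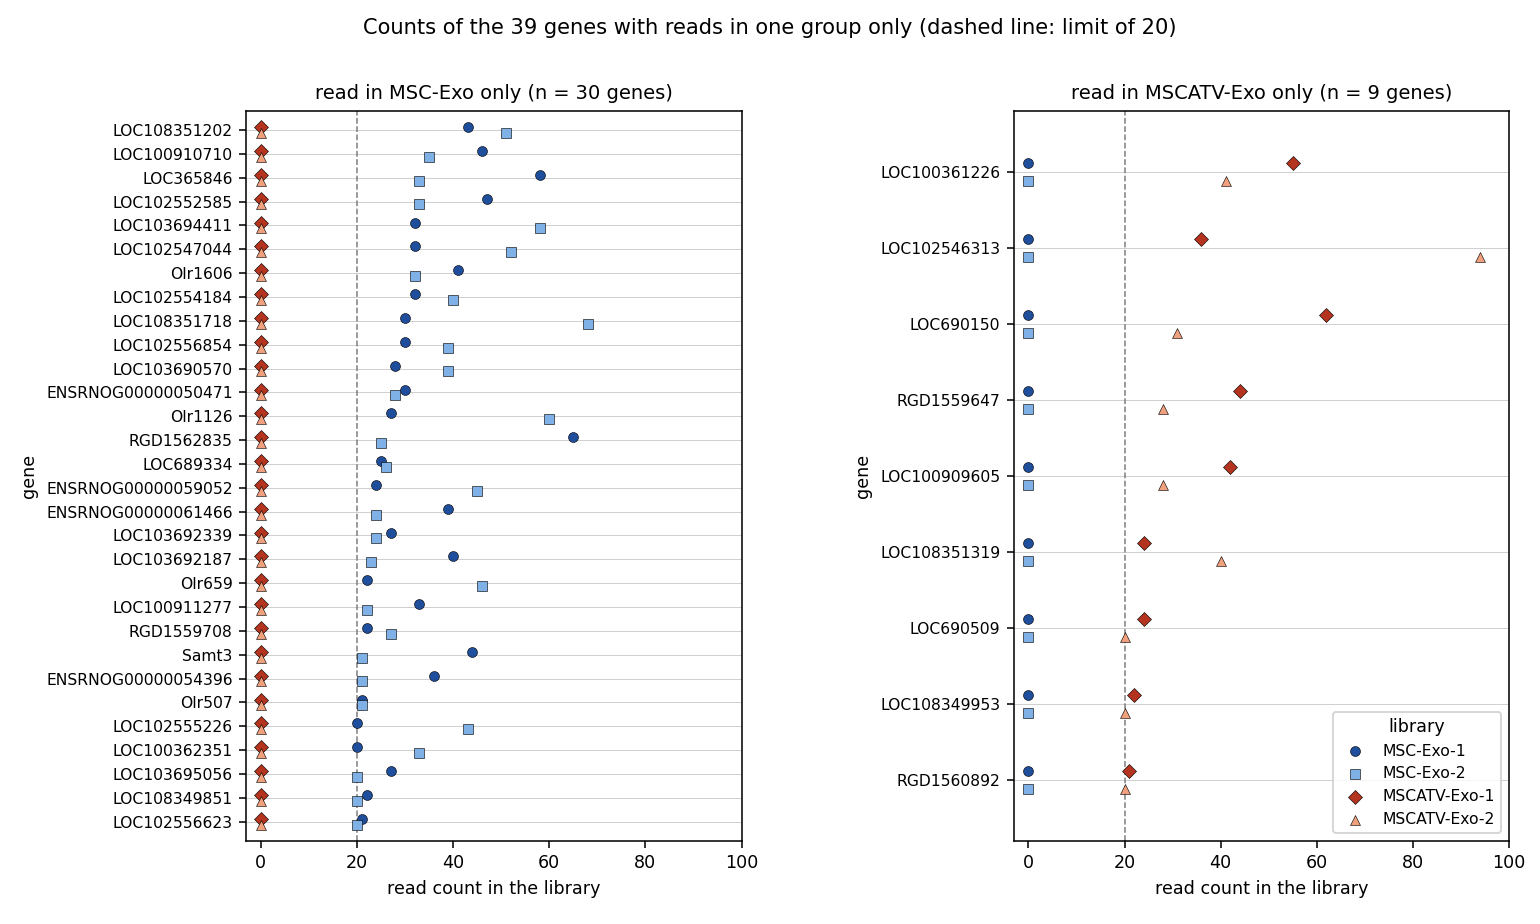
Read count (horizontal axis) of each of the 39 genes (vertical axis) in each of the 4 libraries, with genes read in MSC-Exo only on the left and in MSCATV-Exo only on the right, and the limit of 20 counts as a dashed line. All 39 genes are at 0 in both libraries of 1 group by the rule, and the highest count is 94, in MSCATV-Exo-2.

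In what follows, the 2 counts of a gene are those of replicates 1 and 2 of its group with reads, and its counts in the other group are 0 and 0. Positions are those of the deposited table on the rat build rn6. The table gives the span of a gene and no exons, so it does not show whether a gene lies in an exon or an intron of one that overlaps it. RPKM is the deposited count divided by gene length and by the library total, the scale on which levels of different genes are compared here.

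The pseudogenes formed the largest class, with 13 read in MSC-Exo only and 4 in MSCATV-Exo only. Copies of ribosomal protein genes accounted for 6. RGD1562835, a copy of Rps26 (chr8:50285850-50286354), had 65 and 25 counts, and RGD1559708, a copy of Rps10 (chr16:22410734-22411225), had 22 and 27. Both parents encode proteins of the small ribosomal subunit. For the large subunit, LOC103692339, a copy of Rpl39 (chr5:58534459-58535329), had 27 and 24 counts. LOC100911277, a copy of Rpl6 (chr8:114809590-114810291), had 33 and 22. These 4 were read in MSC-Exo only. In MSCATV-Exo only, LOC690150, a copy of Rpl5 (chr7:16525999-16526908), had 62 and 31 counts, and LOC108351319, a copy of the mitochondrial ribosomal gene Mrps21 (chr6:27856408-27857957), had 24 and 40. Ribosomal protein copies were thus found on both sides.

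Copies of other cellular genes came next. LOC108351202, a copy of ferritin light chain Ftl1, which stores iron (chr6:38571504-38572788), had 43 and 51 counts in MSC-Exo, the highest lower count of all 39 genes. LOC108351718, a copy of Tmsb10, an actin-binding thymosin (chr8:64611798-64613426), had 30 and 68. LOC365846, a copy of Pcyt1a, an enzyme of phosphatidylcholine synthesis (chr2:191935954-191937333), had 58 and 33. All 3 stood in MSC-Exo only, and the 2 counts of the Tmsb10 copy differed by 2.27-fold. LOC102547044, described as like the splicing factor Srsf3 (chr10:7349343-7350686), had 32 and 52 counts. LOC103694411, like the ubiquitin-conjugating enzyme Ube2s (chr20:25621897-25622647), had 32 and 58. LOC689334, a copy of the calcineurin subunit gene Ppp3r1 (chr3:145285348-145286296), had 25 and 26, nearly the same in both libraries. In MSCATV-Exo only, RGD1559647, a copy of the proteasome ATPase gene Psmc6 (chr2:14281360-14282566), had 44 and 28 counts. RGD1560892, a copy of the histone chaperone gene Nasp (chrX:48238495-48239850), had 21 and 20, next to the limit.

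The last 3 pseudogenes have no parent named in the table. ENSRNOG00000050471 (chr9:101250754-101251703) had 30 and 28 counts in MSC-Exo, and LOC100362351 (chr11:81909146-81909704) had 20 and 33. LOC108349851 (chr1:154124775-154126757), described as like an envelope protein of proviruses related to murine leukaemia virus, had 22 and 20, also in MSC-Exo only. Proviruses are retroviral genomes that are inherited as part of the host genome.

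Parents could be named for 15 of the 39 genes, that is 14 pseudogenes and LOC100910710, which resembles Ndufa12. The way the authors' counting divided reads between a gene and its copies is not given in the sources used here. Their sequences were not compared either, so the counts of each such gene and its parent are uncertain. All 15 parents had reads in all 4 libraries. In edgeR's quasi-likelihood test over 33480 genes, 0 of the 15 passed a Benjamini-Hochberg adjusted p of 0.05, as did 0% of all genes tested (smallest adjusted p 0.997), and 3.69% of all genes had an unadjusted p under 0.05. DESeq2 called 0 of the 15 and 0.329% of all genes (106). The fitted log2 fold change, MSCATV-Exo over MSC-Exo, was above 0 for 11 parents and below 0 for 4, with a median of 0.19 (-0.77 to 0.97), against 49.4% of all genes above 0 and a median of -0.01. For 5 of the 15 the 2 groups stood apart without overlap in TMM-scaled CPM, against 33.5% of all genes tested. Of the 11 parents of genes read in MSC-Exo only, 4 had a lower fitted level in MSCATV-Exo and 7 a higher one.

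Rps10 had 113 and 137 counts in the MSC-Exo libraries against 224 and 267 in the MSCATV-Exo libraries, while its copy RGD1559708 was at 0 in MSCATV-Exo. The groups did not overlap, and the log2 fold change was 0.97 ± 0.33 (SE, edgeR adjusted p = 1.0). It was the only parent with an unadjusted p under 0.05. Ftl1 had 876 and 1278 counts in the MSC-Exo libraries against 1394 and 1520 in the MSCATV-Exo libraries, which edgeR fitted as a log2 fold change of 0.43 ± 0.23 (SE, edgeR adjusted p = 1.0). The groups of Ftl1 stood apart in counts and in TMM-scaled CPM, but overlapped in RPKM, where MSC-Exo had 179 and 261 and MSCATV-Exo had 257 and 297. Its copy LOC108351202 was at 0 in MSCATV-Exo. Tmsb10 had 773 and 794 counts in the MSC-Exo libraries against 890 and 851 in the MSCATV-Exo libraries, a fitted log2 difference of 0.15 ± 0.21 (SE, edgeR adjusted p = 1.0). Rps26 had 261 and 373 counts in MSC-Exo and overlapped with its 305 and 394 in MSCATV-Exo, at a fitted log2 difference of 0.13 ± 0.30 (SE, edgeR adjusted p = 1.0). Rpl5, whose copy was read in MSCATV-Exo only, had 328 and 483 counts in the MSC-Exo libraries against 628 and 523 in the MSCATV-Exo libraries, which edgeR fitted as a log2 fold change of 0.50 ± 0.28 (SE, edgeR adjusted p = 1.0). Ppp3r1 had the lowest fold change of the 15, with 206 and 69 counts in the MSC-Exo libraries against 92 and 69 in the MSCATV-Exo libraries (-0.77 ± 0.54, SE, edgeR adjusted p = 1.0). MSC-Exo-1 alone stood above the other 3 libraries for Ppp3r1.

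Per length, 7 of the 15 parents had a mean RPKM over 5 times that of their copy in its group with reads, 5 stood at 1 to 2 times it, and 3 stood below it. Tmsb10 had a mean of 279 RPKM over the 4 libraries and Ftl1 249, against 5.62 and 6.83 for their copies in MSC-Exo. Rps26 had 138 RPKM and its copy RGD1562835 had 16.7, the highest mean of the 39 genes. Psmc6 had 1.72 RPKM, below the 5.14 of its copy RGD1559647 in MSCATV-Exo. Ppp3r1 had 3.83 and its copy LOC689334 had 5.02 in MSC-Exo. Ndufa12 had 9.52 and LOC100910710 had 14.1 in MSC-Exo.

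The other copies of the same parents were looked at for reads in both groups. Rps10 had 25 other pseudogenes, all 25 with reads in some library and 14 with reads in all 4, and 1 of the 25 was at 0 in both MSCATV-Exo libraries. For Ftl1 the table held 23 others, of which 20 had reads in all 4 libraries and 0 were at 0 in both MSCATV-Exo libraries. Together those 23 had 727 and 661 counts in the MSC-Exo libraries against 707 and 642 in the MSCATV-Exo libraries. Tmsb10 had 18 others, 4 with reads in all 4 libraries and 3 at 0 in all 4, and none was read in MSC-Exo alone. Of the 11 others of Rpl39, 5 were at 0 in all 4 libraries. LOC103690889 (4 and 0 counts) and LOC103691979 (8 and 4 counts) were read in MSC-Exo and at 0 in MSCATV-Exo, far under the limit of 20, and were named after their values were seen. Rpl5 had 12 others, of which 8 had reads in all 4 libraries and 1 was at 0 in all 4. Rps26 had 9 others, of which 2 had reads in all 4 libraries. Among these 9, LOC108350154 was read in MSC-Exo only (18 and 11 counts) and LOC100363142 in MSCATV-Exo only (24 and 18 counts). Both were named after their values were seen.

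**Figure D4:**
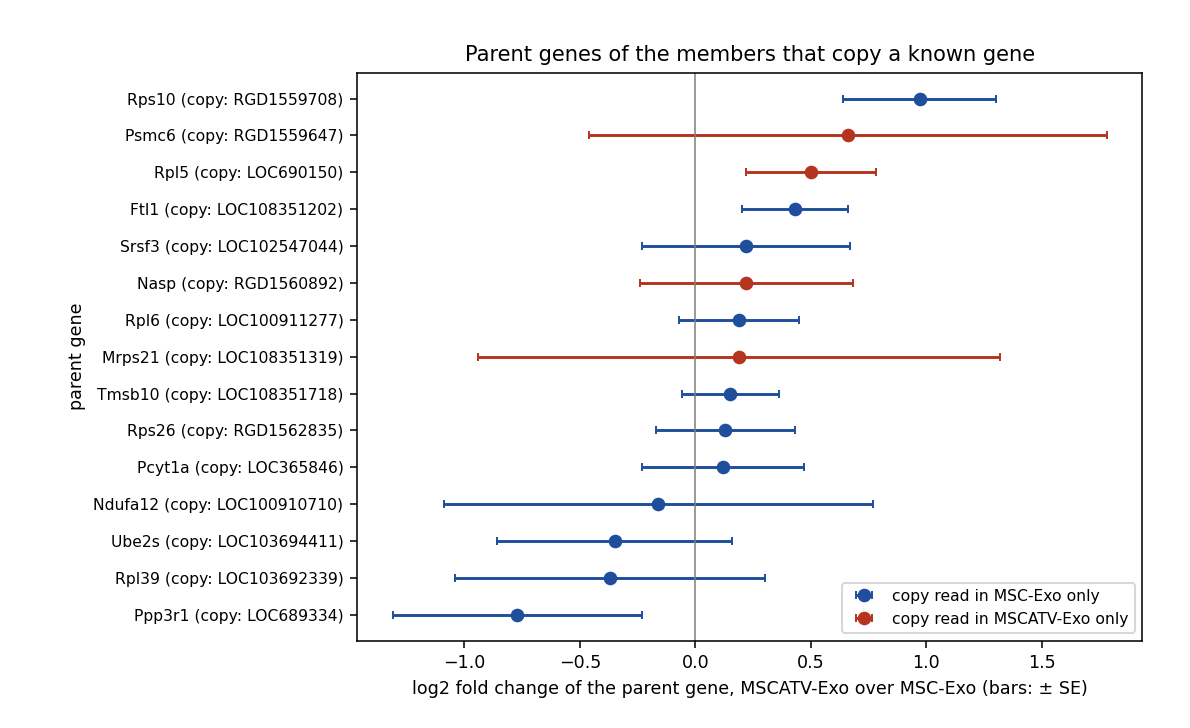
Log2 fold change of each parent gene, MSCATV-Exo over MSC-Exo (horizontal axis), as the edgeR estimate (point) with its SE (bar), with the parent and its copy named on the vertical axis and the colour showing the group in which the copy was read. Of the 11 parents of copies read in MSC-Exo only, 7 have an estimate above 0 and 4 below, and no parent passed the test.

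The 13 long non-coding RNA genes comprised 11 read in MSC-Exo only and 2 read in MSCATV-Exo only. None has a described function in the table. In MSC-Exo, LOC102552585 (chr3:51013200-51018264) had 47 and 33 counts, LOC102554184 (chr20:4035901-4041409) had 32 and 40, and LOC102556854 (chr2:178621336-178626251) had 30 and 39. LOC102554184 lies between RT1-DOb and RT1-Bb, class II genes of the rat major histocompatibility complex, which had 17, 18, 61 and 19 counts and 5, 17, 14 and 9 counts in MSC-Exo-1, MSC-Exo-2, MSCATV-Exo-1 and MSCATV-Exo-2. Both neighbours were thus read in all 4 libraries. LOC103690570 (chr9:97475696-97490115) had 28 and 39 counts, LOC103692187 (chr4:124080874-124090409) 40 and 23, and LOC102555226 (chr6:39861613-39880583) 20 and 43. LOC103695056 (chr1:238042300-238220275) had 27 and 20 counts, and LOC102556623 (chr14:5758741-5761039) had 21 and 20. The 3 lincRNAs known by Ensembl identifier alone were ENSRNOG00000059052 (chr17:85194296-85196454) with 24 and 45, ENSRNOG00000061466 (chr2:84230132-84240656) with 39 and 24, and ENSRNOG00000054396 (chr6:123108382-123109716) with 36 and 21.

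In MSCATV-Exo, LOC102546313 (chr18:72158518-72178262) had 36 and 94 counts, the widest ratio of the 39 genes, and LOC108349953 (chr2:54186308-54190930) had 22 and 20. LOC102546313 is also the longest of the 39, at 6334 bases, and over that length it had the lowest level, at 1.8 RPKM. The deposited table of non-coding transcripts lists 3 transcripts of LOC102546313, and only 1 of them, of 2100 bases, held the reads. Over those 2100 bases its level was 5.44 RPKM, close to the median of 5.84 for the 39. The other 2 transcripts were at 0 in all 4 libraries.

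The non-coding transcript table has entries for 14 of the 39 genes, namely the 13 long non-coding RNA genes and the pseudogene ENSRNOG00000050471. For all 14, 1 transcript had the counts of the gene in every library, so this table repeats the same reads and is no second measurement. Among all 18408 transcripts there, 13 were read in MSC-Exo only and 2 in MSCATV-Exo only at the same limits. The 4 crossed pairs of libraries had 6, 5, 4 and 10. Of the 15 transcripts, 14 belong to the 39 genes. The last belongs to LOC100909672, whose transcript had 68 and 35 counts in MSC-Exo and 0 in MSCATV-Exo while the gene had 68 and 39 in the MSC-Exo libraries against 37 and 0 in the MSCATV-Exo libraries.

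Olfactory receptors made up 4 of the 7 protein-coding genes, and all 4 were read in MSC-Exo only. Olr1606 (chr15:12261122-12262075) had 41 and 32 counts, Olr1126 (chr8:18909899-18910837) had 27 and 60, Olr659 (chr3:77414999-77415928) had 22 and 46, and Olr507 (chr3:73800530-73801471) had 21 and 21. Their mean levels in MSC-Exo were 7.15, 8.65, 6.83 and 4.16 RPKM. Just under the lower limit of counts, 3 other olfactory receptors were read in MSC-Exo only and 2 in MSCATV-Exo only. The family was thus not confined to 1 side there. The family as a whole was not silent in these libraries. The median over 1189 olfactory receptor genes was 2.48 and 2.36 RPKM in the MSC-Exo libraries and 1.71 and 2.28 in the MSCATV-Exo libraries. Of these genes, 22.5% and 20.9% were at 0 in MSC-Exo-1 and MSC-Exo-2, and 35.2% and 24.1% in MSCATV-Exo-1 and MSCATV-Exo-2. The share at 0 was highest in MSCATV-Exo-1, as it was for pseudogenes (29.5%, against 19.3% to 24.4% in the other libraries) and for long non-coding RNA genes (21.2%, against 13.1% to 17.1%). The part of this in the 4 olfactory receptors was not tested. Within 100 kb, Olr507 had 5 other olfactory receptor genes, of which 1 had reads in all 4 libraries and 2 had none in MSCATV-Exo. Olr659 also had 5, of which 1 was at 0 in both MSCATV-Exo libraries, 2 were at 0 in both MSC-Exo libraries and 2 had reads in all 4.

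The other 3 protein-coding genes were unrelated to each other. LOC100910710 (chr6:19299774-19301148), described as like Ndufa12, an accessory subunit of respiratory complex I, had 46 and 35 counts in MSC-Exo. Ndufa12 itself had 22 and 39 counts in the MSC-Exo libraries against 27 and 28 in the MSCATV-Exo libraries, with overlapping groups and a fitted log2 difference of -0.16 ± 0.93 (SE, edgeR adjusted p = 1.0). Samt3 (chrX:54553870-54556708), a multipass membrane protein named for spermatogenesis, had 44 and 21 counts in MSC-Exo, while Samt2 and Samt4 were at 0 in all 4 libraries. In MSCATV-Exo, LOC100909605 (chr6:129052476-129060050), described as like serine protease inhibitor A3F, had 42 and 28 counts. Serpins of the A3 group are secreted protease inhibitors, and their genes lie in a cluster. Its relatives were read on both sides, with Serpina3n at 42 and 73 counts in the MSC-Exo libraries against 95 and 88 in the MSCATV-Exo libraries, and Serpina3c at 57 and 42 against 19 and 16. The pseudogenes LOC100909567 and LOC690397 of the same cluster were at 0 in all 4 libraries.

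Both V segments were read in MSCATV-Exo only. LOC100361226 (chr15:30270689-30271380) had 55 and 41 counts, the highest lower count among the 9 genes of that side. The table describes it only as a protein-like sequence, and of the 40 other V segments within 500 kb, 34 are described as T-cell receptor segments. Those 40 had 667 and 579 counts together in the MSC-Exo libraries against 599 and 752 in the MSCATV-Exo libraries, and 16 of them had reads in all 4 libraries. LOC690509 (chr3:18823678-18824851), an immunoglobulin kappa V segment, had 24 and 20 counts. Of the 22 other V segments around it, 4 had reads in all 4 libraries, and the 22 together had 166 and 88 counts in the MSC-Exo libraries against 110 and 132 in the MSCATV-Exo libraries. LOC690580, a segment with the same description as LOC690509, had the opposite pattern, with 27 and 12 counts in the MSC-Exo libraries against 0 and 0 in the MSCATV-Exo libraries. Others of that description stood higher in MSCATV-Exo without being at 0 in both MSC-Exo libraries, with LOC690527 at 0 and 7 counts against 35 and 27, and LOC690499 at 8 and 4 against 43 and 11. The summed segments of both regions were present in both groups. Only B and T cells rearrange V segments. Cd3e, of T cells, had 26 and 87 counts in the MSC-Exo libraries against 18 and 62 in the MSCATV-Exo libraries. Cd79a, of B cells, had 20 and 12 against 4 and 15. The part of RNA from B and T cells in the 2 V segments was not tested.

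The 39 genes had features in common that the rule did not name. By gene type, 43.6% were pseudogenes and 17.9% protein-coding, against 13.3% and 65.3% of the 28627 genes with 20 counts or more in at least 2 libraries. Among the 68 genes of the crossed divisions, 48.5% were pseudogenes and 27.9% protein-coding. Long non-coding RNA genes were 33.3% of the 39, 14.7% of the 68 and 20.0% of the 28627. Olfactory receptors were 10.3% of the 39, 8.82% of the 68 and 1.79% of the 28627. The median gene length was 948 bases (324 to 6334), against 904.5 for the crossed divisions and 2366 for the genes with 20 counts or more. The length of 48.7% equalled their span on the chromosome, as in a gene of 1 block without introns, against 50% for the crossed divisions and 13% for the 28627. Symbols beginning with LOC, RGD or ENSRNOG, the mark of genes known by prediction, were carried by 34 of the 39 (87.2%), 80.9% of the 68 and 41.2% of the 28627. These shares are descriptions of the sets and were not tested.

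**Figure D5:**
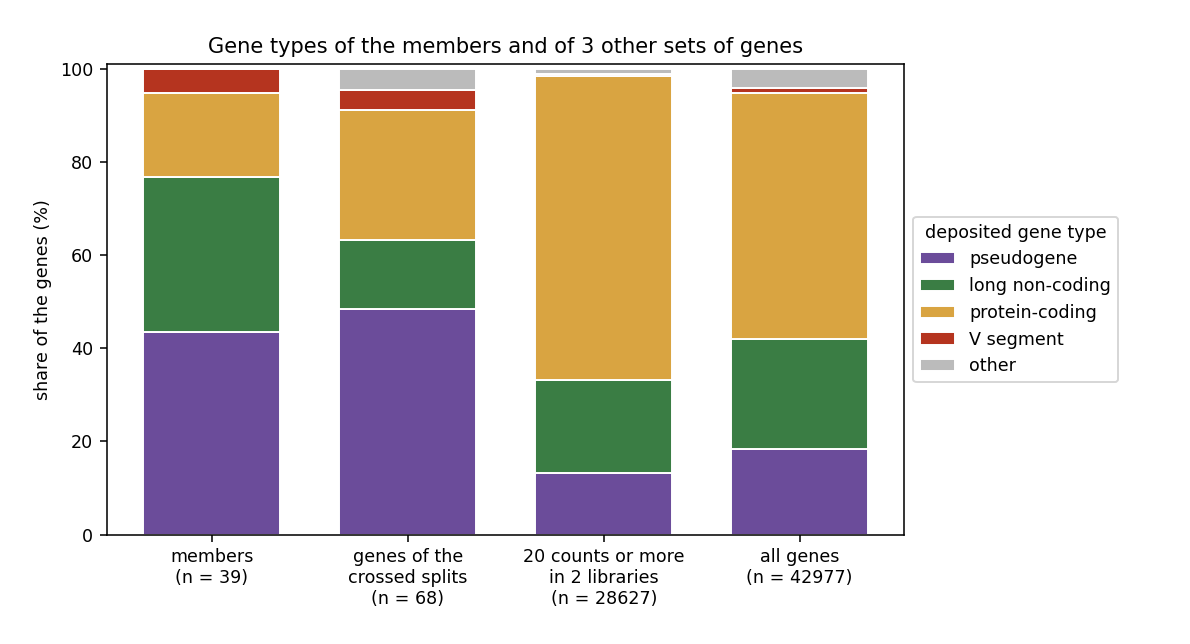
Share of genes (vertical axis, %) by deposited gene type for the 39 genes, the 68 genes of the crossed divisions, the 28627 genes with 20 counts or more in at least 2 libraries, and all 42977 genes. Pseudogenes make up 43.6% and 48.5% of the first 2 bars and 13.3% of the third.

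The 39 genes were spread over 18 chromosomes, with 6 on chromosome 6, 5 each on chromosomes 2 and 3, and 4 on chromosome 8. The closest 2, LOC108351202 and LOC102555226, lay 1288825 bases apart. Of the 78 nearest neighbours on either side, 0 were among the 39, and 50 had reads in all 4 libraries. Another 10 neighbours were at 0 in both libraries of the group in which the gene was at 0, and 8 of those 10 were at 0 in all 4 libraries. LOC103692338, a pseudogene 368 bases from LOC103692339, was at 0 in both MSCATV-Exo libraries with 8 and 32 counts in MSC-Exo, which left it outside the limit.

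Another annotated gene overlapped 15 of the 39, and 13 of the 15 overlapping genes had reads in all 4 libraries. The NEBNext Ultra kit named in the labels does not mark the strand, so reads from a gene and an overlapping gene on the other strand cannot be told apart by strand. Nbas overlaps the Ftl1 copy LOC108351202 on the same strand and had 176, 178, 187 and 177 counts in MSC-Exo-1, MSC-Exo-2, MSCATV-Exo-1 and MSCATV-Exo-2. Myo9a, opposite the Tmsb10 copy LOC108351718, had 130, 119, 118 and 120 counts in the same order. Zbtb7c, opposite LOC102546313, had 188 and 198 counts in the MSC-Exo libraries against 113 and 163 in the MSCATV-Exo libraries, lower where LOC102546313 was read. Ctnna3, opposite the Ube2s copy LOC103694411, had 88 and 97 counts in the MSC-Exo libraries against 226 and 91 in the MSCATV-Exo libraries. LOC102550434 overlaps ENSRNOG00000054396 on the same strand and had 348 and 379 counts in the MSC-Exo libraries against 212 and 270 in the MSCATV-Exo libraries. Asxl2, Unc13b, Rbsn, Grb14, Pafah1b2, Pglyrp3 and Abcg3l3 were the other protein-coding genes that overlapped one of the 39, and all 7 had reads in every library. The last 3 overlapping genes have non-coding types, with LOC102553574, over ENSRNOG00000061466, at 14 and 9 counts in MSC-Exo and at 6 and 1 in MSCATV-Exo. LOC108349699, a copy of the ribosomal gene Rpl17 opposite LOC103695056, had 13 and 26 counts in MSC-Exo but 0 and 2 in MSCATV-Exo. ENSRNOG00000053504, over LOC102555226, had 6 counts in MSC-Exo-2 and 0 in the other 3 libraries.

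Just outside the limit, with a lower count of 18 or 19 and 0 in the other group, 8 genes were read in MSCATV-Exo only and 15 in MSC-Exo only. On the MSCATV-Exo side they included LOC100363142, a copy of Rps26 (24 and 18 counts), the pseudogene ENSRNOG00000026794 (31 and 19), ENSRNOG00000055039, of the type miscellaneous RNA (18 and 21), and LOC100909844 (18 and 18). On the MSC-Exo side they included Ctsm (cathepsin M, 18 and 25) and Klrc2, a receptor of natural killer cells (52 and 18), with the lincRNAs ENSRNOG00000051321 (18 and 28) and ENSRNOG00000056957 (19 and 19). Just inside, with a lower count of 20 or 21, stood 3 and 8 of the 39 genes.

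The tests over the whole table differed on the 39 genes, whose counts had chosen them. All 39 passed edgeR's filter on low counts, and 0 reached an adjusted p of 0.05 (1.0 for each), while all 39 had an unadjusted p under 0.05. Over all 33480 genes tested by edgeR, 0% passed and 3.69% had an unadjusted p under 0.05. DESeq2 called 25 of the 39, and 106 (0.329%) of the 32181 genes with an adjusted p. Its adjusted p for the 39 ran from 0.00146 to 0.167, with none given for LOC102556623 and RGD1560892. In the authors' deposited table of MSCATV-Exo against MSC-Exo, 34.3% of 38021 genes had a q under 0.05, and so did all 39, at 3.7e-05 or less and with an infinite log2 ratio. That deposited table by the authors lists an infinite ratio for 1165 genes, of which 1076 had a q under 0.05, and 1037 of those fell outside the limits used here. Nothing is read from these shares, since the rule used the same contrast.

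The labelled cell type was checked against its markers, and the list of mesenchymal stem cell markers did not stand apart from those of all other cell types. All 7 listed markers of mesenchymal stem cells were read in every library, with sums of 1309 and 1441 counts in the MSC-Exo libraries against 1345 and 1489 in the MSCATV-Exo libraries. Of the stromal matrix genes, Col1a2 was at 0 in all 4 libraries and the other 4 were read in each. Exosome markers (5 genes) summed to 427 and 380 counts against 416 and 576. Per length, the median of the mesenchymal stem cell markers was 5.02 to 7.37 RPKM over the 4 libraries. Medians for other cell types were 5.52 to 6.99 for adipocyte, 4.37 to 6.67 for osteoblast, 2.74 to 6.77 for haematopoietic and endothelial, and 0.913 to 3.94 for erythroid markers. The stromal matrix list, which is not one of mesenchymal stem cells alone, stood higher than these, at 17.1 to 22.7 RPKM. No marker of any list was among the 39 genes.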

How the data were processed

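RNA of 4 exosome libraries (2 MSC-Exo, 2 MSCATV-Exo) was sequenced, and groups were taken from the sample titles. The rat build rn6 (Rnor_6.0) and the aligner TopHat2 are named, per the submitters' processing notes. The version, the read counter and the annotation are not given in the sources used here. The authors deposited raw read counts and RPKM (counts divided by gene length and library total) per gene and per non-coding transcript. The authors also deposited a comparison with a log2 ratio of mean RPKM, a p-value and a q-value per gene, whose test is not given in the sources used here.

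The 39 genes were found from the counts as deposited (0 in both libraries of 1 group, 20 or more in both of the other). They and the lists used here (parent genes, gene families, markers) were chosen with earlier results of these data known. All genes on either side were named, with their parents, the genes that overlap them, and up to 4 genes per side just inside and just outside the limit, in alphabetical order. Parents were taken from the deposited descriptions. Folds are the pooled CPM of the group with reads over 3 counts in the other group. They are lower bounds for counting error in the group at 0 only, without spread between libraries. Counts of all genes were fitted with edgeR 4.0.16 (R 4.3.3) after its filterByExpr filter, which left 33480 genes, with TMM factors. The two-sided quasi-likelihood test was used, and p-values were adjusted by Benjamini and Hochberg over all genes with a threshold of 0.05. SE is the log2 fold change over the square root of F. The biological coefficient of variation was 0.559. Rules and fits were tested on simulated data. For the fit, changes were planted only in genes at higher CPM than any of the 39, so genes at such low counts were not covered. Alternatives were other count limits, scaled counts, DESeq2 1.42.0 on the genes that passed edgeR's filter, other factors and filters, the replicate number as a block, and leaving out each library. No rat sequences were at hand, so none are shown. The summed leukocyte marker list is not reported here.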

Additional observations from a re-analysis of the deposited data

How the results depend on the processing

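The number of genes depended on the count limit. At 10 counts it was 209 (60 read in MSCATV-Exo only, 149 in MSC-Exo only), at 30 counts 13 (3 and 10), and at 50 counts 0 (0 and 0). With at most 1 count allowed in each library of the other group it was 46 (10 and 36), and with counts scaled by TMM or DESeq2 factors 34 (6 and 28). Leaving out 1 library in turn gave 193 to 428 genes, 66 to 144 read in MSCATV-Exo only and 118 to 350 in MSC-Exo only. These runs ask for fewer libraries at 0 and with reads, so more genes can pass. The most genes passed without MSCATV-Exo-2.

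Over the whole table edgeR called 0 genes, and 0 with RLE factors, total counts or a mean of at least 1 CPM. It called 8 with no filter on low counts, 1 of them among the 39, and DESeq2 called 106, of which 25 were among the 39. Leaving out 1 library gave 1 to 168 calls, 0 to 8 of them among the 39, with the most (168 and 8) without MSCATV-Exo-2 and 27 and 1 without MSCATV-Exo-1. A group left with 1 library was assumed to vary like the other. Same-numbered libraries deviated with a correlation of -0.000516 across 33480 genes. A single value over all genes cannot decide whether the numbers pair the libraries, since pairing may touch only some genes. At the limit used for the 39, the division by same replicate numbers held 44 genes and that by different numbers 24. The replicate block gave 4 calls, 0 among the 39, and 10 of 15 parents above 0. Of the parents, 11 stayed above 0 with every other scaling or filter and 9 to 11 with 1 library left out. These alternatives for parents were chosen after seeing the data. Without TMM factors the median over all genes shifted on the log2 scale, to -0.11 from -0.01, and that of the parents to 0.09 from 0.19.

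The median level in the group with reads was 6.49 RPKM on the MSC-Exo side and 4.23 on the MSCATV-Exo side, and 6.3 and 4.42 with TMM-scaled library sizes. With LOC symbols set apart, 12.8% of the 39 were protein-coding in place of 17.9%. At a limit of 10 counts the non-coding table also gave 14 of the 39 genes. This number could not change, since only those 14 have entries there and all had met the higher limit. By counting error alone, a gene without reads was not distinguishable at this depth from one at up to 3 counts. Spread between libraries is not part of this limit.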
